A study of Mus musculus with 8 samples.

Results

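Translation factors are the proteins that carry the ribosome through protein synthesis. They were taken here as the genes whose single platform symbol begins with Eif (eukaryotic initiation factor) or Eef (eukaryotic elongation factor). By this rule 49 genes, read by 66 probe sets, were found among 8251 named genes: 41 Eif genes and 8 Eef genes. The brightest probe set stood for each gene, and the others served as a check. A further probe set lists an Eif symbol together with others and was left out.

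The 8 arrays (Affymetrix mouse U74Av2, on which a set of short probes near the 3′ end reads each transcript) measured liver RNA from 8 female Ames mice of 1 group, and each label was taken as 1 mouse. All had the normal phenotype and were either +/+ or +/df at the df locus, which the labels do not tell apart, so carriers may be mixed with non-carriers. They ate 30% less than normal females with free access to food and were killed at 24 to 26 months. No freely fed or dwarf animals were analysed here, so the values describe levels and their spread between animals, and no effect of diet was measured.

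In initiation, eIF2 brings the initiator tRNA to the small ribosomal subunit, eIF3 serves as a scaffold, the eIF4 proteins bind the mRNA cap and unwind the leader, and eIF5 and eIF5B release the factors and join the large subunit. In elongation, eEF1A delivers aminoacyl-tRNA, the eEF1B proteins recharge it with GTP, and eEF2 moves the ribosome along the mRNA. Control is mostly on the proteins, by eIF2 kinases, by eIF4E-binding proteins under mTOR and by eEF2 kinase. Many elongation factor and ribosomal protein mRNAs also begin with a run of pyrimidines, the TOP start, through which mTOR controls their translation. Liver is a tissue of high protein synthesis, and mTOR signalling responds to food intake.

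Because the TOP start is the sequence feature for which this family is known, the annotated start sites of 4 members are shown, from the RefSeq promoter table of build GRCm38.p6. They are Eef1a1 and Eef2, the elongation factors with the narrowest range and the highest variance ratio, and the 2 members in which the annotated start base is itself a C followed by at least 4 pyrimidines. Each window is 30 bases, 10 before the annotated start and 20 from it. Capitals mark a C followed by at least 4 pyrimidines that begins within 10 bases of the start. In Eef2 such a run begins beyond that reach, at the end of the window, and is not marked. The annotated starts were not checked against those used in liver, so a marked run is not shown to begin an mRNA.
Eef1a1, chr9:78481705-78481734, minus strand: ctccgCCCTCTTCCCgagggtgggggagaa
Eef2, chr10:81176621-81176650, plus strand: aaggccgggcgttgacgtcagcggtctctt
Eif2s3x, chrX:94212632-94212661, minus strand: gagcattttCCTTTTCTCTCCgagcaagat
Eif3f, chr7:108934405-108934434, plus strand: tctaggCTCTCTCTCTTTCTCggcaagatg

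Of the 49 genes, 41 had an entry in that table, and 14 of these had such a run near a start: 13 of 36 Eif genes and 1 of 5 Eef genes. Counted by start site, 18 of 56 (32.1%) held it, against 29.7% of all 32851 start sites in the table and 41 of 74 (55.4%) of those of ribosomal proteins. A C at the start base with at least 4 pyrimidines after it was found at 2 member sites, 3.57%, against 2.51% of all. The search read only the sense strand at the annotated start, and by this search the share among the members was near that of all genes. A start annotated some bases off can hide a run, so these counts do not show how many members have a TOP start.

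The level filter kept probe sets whose mean log2 signal lay above the median of all, and 36 of the 49 genes passed it: 31 Eif genes and 5 Eef genes. Spread is described for these 36. Signals are quantile-normalized, in arbitrary units, with a floor of 24.6. They depend on the probes as well as on the transcript, so levels are not compared between genes. The liver label held: of 8 hepatocyte markers, 7 were matched and all 7 passed the filter, with albumin at 31094 ± 749 (SD, n = 8, as for each SD that follows). Eif2s3y, the Y-linked copy of an eIF2 subunit gene, lay at the floor on all 8 arrays of these females, with deposited values of 2.2 to 22.

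Replicate 5 stood apart from the other arrays before any gene was considered. The log2 ratio of the 3′ to the 5′ control probe set of Gapdh was 4.35 there and −0.24 to 0.33 on the others, and its median correlation with the other arrays was 0.881 against 0.943 to 0.974. For pyruvate carboxylase this ratio reached 4.33 on replicate 5, with replicate 6 alike at 4.30 and the 6 remaining arrays between 1.42 and 2.76. Most kept macrophage markers were also low on replicate 5. Of 7 markers 5 passed the filter, and 4 of these 5 were lowest there, against 28.3% of all genes. The mean log2 deviation of the 5 ran from −0.99 there to 0.29 on replicate 4. Below the filter, Adgre1 was not low there (137 against 40.9 to 157), and Marco lay at the floor on 6 arrays. C1qa differed most there (80.0 against 768 to 1557), whereas Cd68 read 333 against 352 to 464 and Clec4f, at 1401, lay within the other arrays' range. On replicate 6 the 4 kept endothelial markers had their lowest score, −0.58, and the 2 erythroid markers theirs, −0.95. Of the endothelial markers 3 were lowest there, while Eng read 2630 in a range of 2187 to 3021. Pecam1, below the filter, was not low there either, at 183 with a highest value of 193. The exocrine pancreas score ran from −0.70 on replicate 5 to 1.004 on replicate 2. Only 1 of its 4 kept markers, Reg1, was lowest on replicate 5 (30.2 against 120 to 1968). Ctrb1 was near its highest value there, at 767 in a range of 548 to 778. Cela1 (597) and Cela2a (168) lay within the range of the other arrays. The part of RNA quality or cell content in the results below was not tested, and bulk tissue cannot tell fewer cells of a type from less RNA per cell. Results are therefore given with and without replicate 5.

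Elongation factors had a larger median spread between the arrays than initiation factors, and this difference rested on replicate 5. The median SD of the log2 signal was 0.49 for the 5 Eef genes, 0.28 for the 31 Eif genes and 0.28 for all 4810 genes that passed the filter. Over the 7 other arrays the medians were 0.19, 0.22 and 0.21. The highest array exceeded the lowest by more than 2-fold for 4 of 5 Eef genes and 7 of 31 Eif genes, against 37.2% of all genes. Without replicate 5 this held for 2 of 5 (Eef1b2 and Eef1a2) and 0 of 31, against 16.5%, and without replicates 5 and 6 again for 2 of 5 and 0 of 31, against 10.1%. A single array stood far outside the other 7 for 1 of 5 Eef genes and 10 of 31 Eif genes, against 20.9% of all genes. Set against transcripts of like level, the log2 ratio of a gene's variance to the variance fitted at its level had a median of 1.498 for elongation and 0.30 for initiation factors, beside 0.09 for all genes. With replicate 5 left out and the other arrays normalized again, these medians were 0.10, 0.067 and 0.032.

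**Figure D1:**
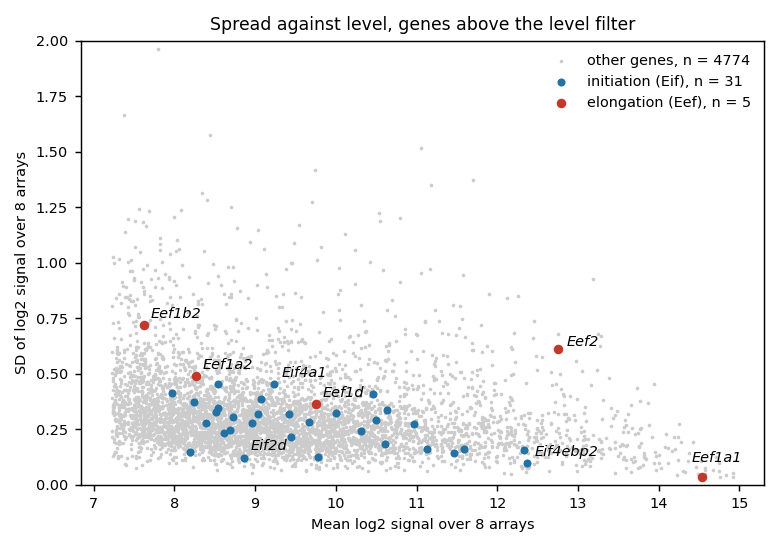
Spread against level for genes above the level filter: the x axis is the mean and the y axis the SD of the log2 signal over 8 arrays, with a point per gene, 31 initiation factors in blue, 5 elongation factors in red and the other genes in grey. Eef2 lies above most genes of its level with an SD of 0.61, and Eef1a1 lies near 0.

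None of the members passed the test of variance over the arrays. This F test was set up here on limma's fitted variances and is called limma's test below. Its Benjamini-Hochberg adjusted p was under 0.05 for 0 of 36 members and for 0% of all 6211 probe sets tested. At an unadjusted p under 0.05 the test held 1 of 36 members, Eef2, against 4.84% of all genes. Counted by probe set it held 3 of 42, Eef2 and the dimmer pair of Eif4ebp2, against 5.67% of all probe sets. Without replicate 5 Eef2 was not among them, and the 1 member held was Eef1b2, against 5.38% of all genes. The limma adjusted p of Eef2 was 0.842. The test asks whether a gene exceeds the common spread, so a p that misses the threshold does not show that the animals were alike.

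The elongation factors did not share 1 pattern over the arrays. Eef1a1 (probe set 94766_at), which encodes the common form of the factor that delivers aminoacyl-tRNA, was lowest at 22747 on replicate 7, had a median of 23805 and was highest at 24658 on replicate 1. Its 1.08-fold range was the narrowest of the 36. On the deposited scale it was 1.16-fold, from 22170 on replicate 8 to 25720 on replicate 6, so the order of the arrays depended on the scaling. Its level lay at the 99.9th percentile, where replicates 2, 4 and 8 were given the same normalized value, 23543. Whether the signal was saturated at this level was not tested. On replicate 5 Eef1a1 read 24238, within the range of the other arrays.

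Eef2 (97559_at), the translocase gene, read 8480, 7494, 7632, 8379, 2432, 8317, 8087 and 7511 on replicates 1 to 8. Replicate 5 was the only low array, and it did not overlap the other 7, which spanned 1.13-fold. The log2 difference of replicate 5 from the median of the others was −1.73. The mean was 7292 ± 2004, a coefficient of variation of 27.5%, and the coefficient was 5.39% without replicate 5. On the deposited scale replicate 5 read 2558 and the others up to 8494.

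Eef1d (160129_at), which encodes a GTP-exchange subunit of eEF1B, was also lowest on replicate 5, at 502, with a median of 882 and a highest value of 1220 on replicate 6. Its range was 2.43-fold with all arrays and 1.496-fold without replicate 5. Eef1b2, which encodes another exchange subunit, showed a different order: 386 on replicate 1, 338 on replicate 4, 248 on replicate 2, 236 on replicate 3, 190 on replicate 8, 131 on replicate 5, 123 on replicate 6 and 96.7 on replicate 7 (96624_r_at). Its 3.997-fold range did not involve replicate 5, and its mean was 218 ± 104. The second Eef1b2 probe set lay at the floor on 6 arrays and gave no check. The suffix of the first marks a set for which not all probe design rules were met.

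Eef1a2 (94429_at) encodes the form of eEF1A typical of muscle, heart and neurons. It was lowest at 175 on replicate 5 and 196 on replicate 4, had a median of 354 and was highest at 437 on replicate 7, a 2.50-fold range (2.24-fold without replicate 5). Skeletal muscle markers were measured beside it: 5 of 7 passed the filter, and their mean log2 deviation was highest on replicate 7 at 0.46 and lowest on replicate 8 at −0.29. Tnnt3 lay at the floor on 4 arrays and Acta1 on 2. On replicates 4 and 5, where Eef1a2 was lowest, the muscle score was 0.05 and 0.04. The part of muscle carry-over in the Eef1a2 values was not tested.

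**Figure D2:**
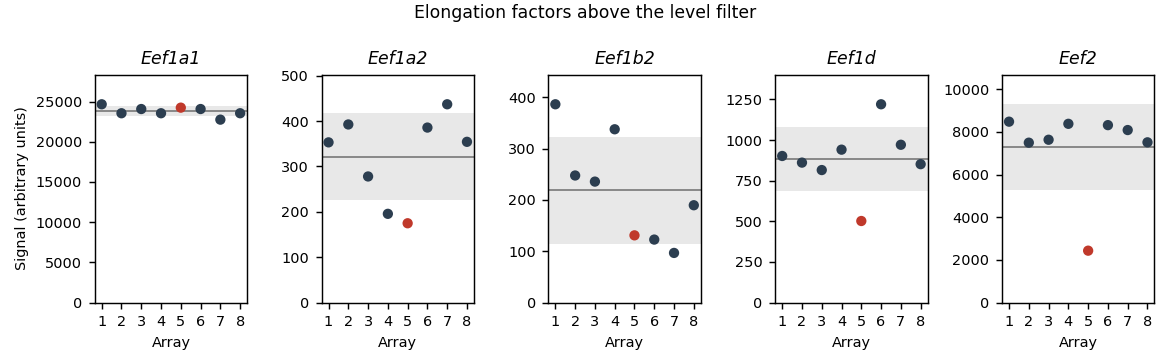
Signal of the 5 elongation factors that passed the level filter, with a panel for each gene, the array number on the x axis and the signal in arbitrary units on the y axis from 0. Points are single arrays, replicate 5 in red, the line is the mean and the band 1 SD; Eef2 on replicate 5 (2432) sits apart from the 7 others, while Eef1a1 is level.

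Of the other 3 Eef genes, Eef2k, the kinase that inhibits eEF2, was dim at 66.6 ± 31.6, with 1 array at the floor. The methyltransferase gene Eef1akmt1 was at 137 ± 35.8, highest at 211 on replicate 5. Eef1g, which encodes the structural subunit of eEF1B, lay at the floor on all 8 arrays (1 to 12.1 as deposited). A probe set at the floor does not show that the transcript is absent.

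Array by array, the classes differed most on replicate 5. A class score, the mean deviation of the members' log2 signals from their means over the arrays, was −0.73 there for elongation and 0.13 for initiation factors. Their difference, initiation minus elongation, was 0.86 on replicate 5 and between −0.30 and −0.02 on the others. With replicate 5 left out the difference ran from −0.18 on replicate 1 to 0.10 on replicate 6. Replicate 5 was more than 2-fold below the median of the others for 2 of 5 Eef genes, Eef2 and Eef1a2, and for 0 of 31 Eif genes, against 8.07% of all genes. It was more than 2-fold above it for 0 of 36 members, against 2.95%. It held the highest value of 13 of 31 initiation and 0 of 5 elongation factors, against 34.1% of all genes, and the lowest value of 7 of 31 and 3 of 5, against 28.3%. For the initiation factors these shares were near those of all genes.

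**Figure D3:**
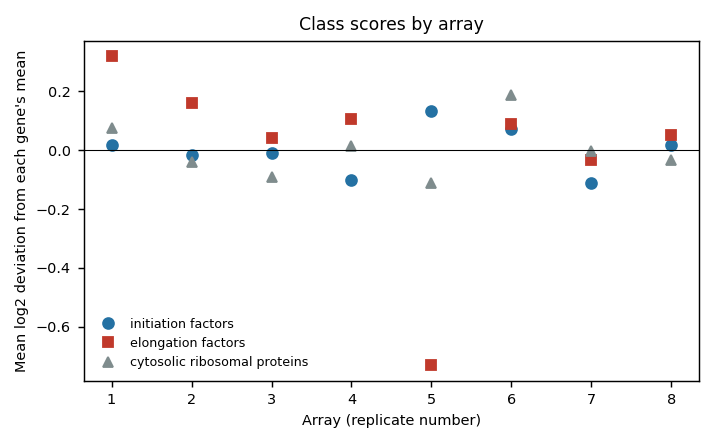
Class scores by array: the x axis is the array number and the y axis the mean log2 deviation from each gene's own mean, for 31 initiation factors, 5 elongation factors and 24 ribosomal protein genes. The elongation score is lowest on replicate 5 (−0.73), and the ribosomal protein score is highest on replicate 6 (0.19).

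Within a class the genes showed little common movement. The mean pairwise correlation over the 8 arrays was 0.0353 among initiation factors, 0.197 among elongation factors and −0.0314 between the classes, beside 0.00224 over all genes. All pairs share the same 8 arrays, and without replicate 5 the value for elongation factors was 0.0335. Ribosomal protein genes, of which 14 of 24 were highest on replicate 6 against 18.8% of all genes, correlated on average at 0.161 with elongation and 0.0534 with initiation factors.

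Among the initiation factors that select the start codon and join the subunits, 5 of 6 were highest on replicate 5. This compares with 13 of all 31 initiation factors and 34.1% of all genes. Eif1ax, one of several closely related eIF1A genes, was lowest at 361 on replicate 7, had a median of 513 and reached 923 on replicate 5. The 7 other arrays ended at 600, so replicate 5 did not overlap them. Eif1b, a paralog of the start-selection factor eIF1, ran from 749 on replicate 3 to 1406 on replicate 5, with 1336 on replicate 6 close behind. Eif5b, the GTPase that joins the subunits, ran from 231 on replicate 7 over a median of 399 to 630 on replicate 5, a 2.73-fold range that was 1.97-fold without that array. Eif5, which activates GTP hydrolysis on eIF2, had a narrower range of 1.74-fold around a mean of 2028 ± 388. Eif6, which keeps the large subunit from joining too early, was the exception, lowest at 562 on replicate 5 and highest at 1111 on replicate 6.

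The genes that deliver the initiator tRNA were mostly of narrow range. Eif2s3x, the X-linked gene for the eIF2 γ subunit, ran from 2590 to 3350, a 1.29-fold range, with the highest value on replicate 6. Eif2d, an alternative tRNA-delivery factor, ran from 411 to 510, and its log2 variance ratio of −2.29 was the lowest of the 31. Eif2a, which also binds initiator tRNA, was unlike them: 172 on replicate 7, a median of 242 and 462 on replicate 5, the latter apart from the 7 others, which ended at 272. Eif2s2, the β subunit gene, did not pass the filter, at 120 ± 54.4, and the α subunit gene Eif2s1 was not analysed here.

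The exchange factor eIF2B, which reloads eIF2 with GTP and is the target of the stress kinases' control, was measured by 4 of its subunit genes, and their order over the arrays differed. Eif2b4 was lowest on replicate 5 (320 against 473 to 592). Eif2b2 and Eif2b5 were highest on replicate 6, at 496 against 278 to 362 and at 595 against 333 to 443. Eif2b1 was highest on replicate 5 at 496, with a median of 400.0 and a lowest value of 296. By the brightest probe set all 4 ranged less than 2-fold, although Eif2b4 ranged 2.08-fold on the deposited scale. The second Eif2b5 set above the filter ranged 4.21-fold and was lowest on replicate 5.

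Of the 4 eIF2 kinase genes, only Eif2ak1, the heme-regulated kinase, passed the filter. It was lowest at 567 on replicate 5, had a median of 681 and was highest at 869 on replicate 3. Eif2ak2, the kinase activated by double-stranded RNA, was at 112 ± 28.9, Eif2ak3, the kinase of endoplasmic reticulum stress (PERK), at 70.8 ± 26.7, and Eif2ak4, the kinase of amino acid shortage (GCN2), at 83.7 ± 36.2. The last 2 were both highest on replicate 5, at 119 and 163. These 3 probe sets are too dim for their spread to be read.

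**Figure D4:**
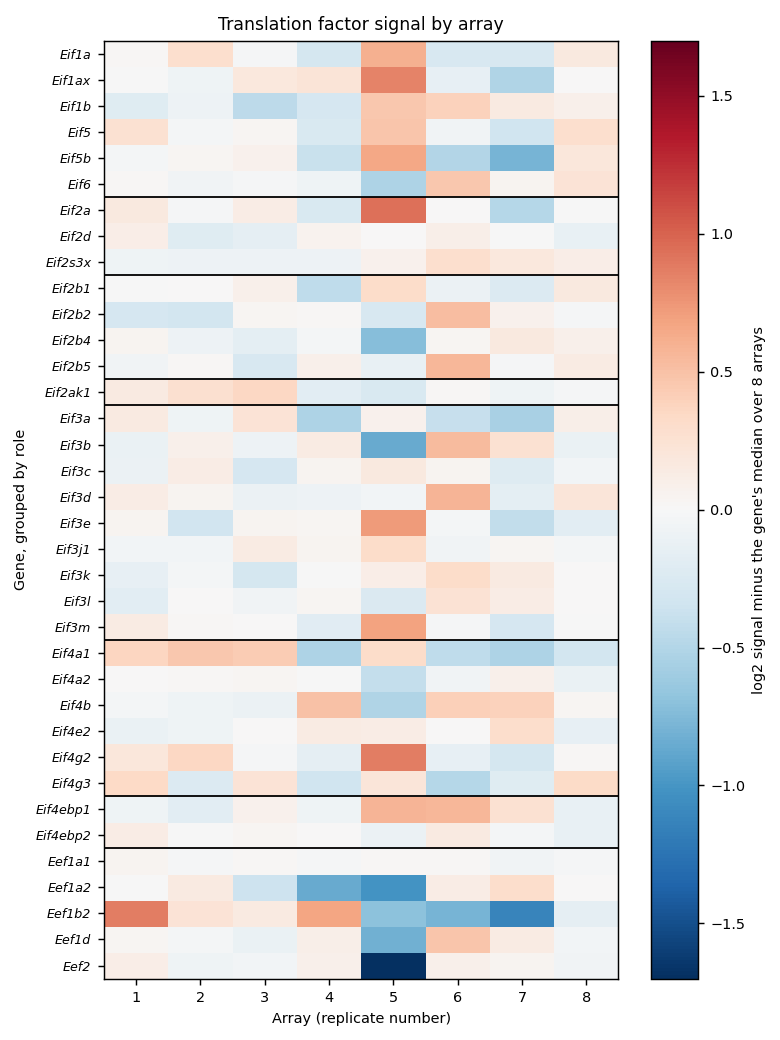
Log2 signal of the 36 genes above the level filter relative to each gene's median over 8 arrays (colour), with genes in rows grouped by role (black lines) and arrays in columns. Replicate 5 holds the strongest colours in both directions, with Eef2 the lowest cell and Eif2a, Eif4g2 and Eif1ax among the highest.

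The eIF3 scaffold was measured by 10 subunit genes, 9 of which passed the filter, with a median SD of 0.24 on the log2 scale (0.19 over the arrays other than replicate 5). Some had narrow ranges: Eif3c ran from 2592 to 3534, Eif3l from 1895 to 2685, Eif3k from 1257 to 1914 and Eif3j1 from 818 to 1054. Eif3b, a core subunit that binds RNA, had the widest range, with 789 on replicate 5, a median of 1436 and 2083 on replicate 6, 2.64-fold in all and 1.58-fold without replicate 5. Eif3e and Eif3m went the other way on replicate 5, at 620 against 282 to 390 and at 2243 against 1142 to 1544. Eif3d was highest on replicate 6 at 1797, against 1078 to 1395. Eif3a, the largest subunit, ran from 507 to 877 with no array apart, and without replicate 5 it had the widest range of the 9, 1.73-fold. Eif3f, with the pyrimidine run at its annotated start shown above, was just below the filter at 143 ± 39.6. Subunits of 1 complex thus had both high and low values on the same array, and their mean pairwise correlation was 0.0248.

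Among the factors that bind the cap and unwind the leader, Eif4a1 had the highest variance for its level, with a log2 ratio of 1.62, and Eif4e2 the lowest, −2.01. Eif4a1 encodes the main form of the eIF4A helicase. Its 8 signals fell into a high and a low set, with no value between. The high set was 790, 847, 826 and 763 on replicates 1, 2, 3 and 5. The low set was 428, 456, 429 and 495 on replicates 4, 6, 7 and 8. The only probe set of Eif4a1 (92816_r_at) carries the suffix for unmet design rules. Eif4a2, which encodes another form of the helicase, had a narrow range of 4036 on replicate 5 and 4934 to 5688 elsewhere. Eif4b, which stimulates the helicase, ran from 1056 on replicate 5 to 2123 on replicate 4, with a median of 1508.

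Eif4g2, which encodes a relative of the eIF4G scaffold that does not bind eIF4E, read 515 on replicate 5, apart from the other arrays at 229 to 362. Eif4g3, a scaffold form, ran from 265 to 469, and Eif4e2, a cap-binding relative of eIF4E, from 260 to 351. Eif4e itself was dim, at 50.4 ± 19.04 on its brighter probe set, and did not pass the filter. Eif4h, a cofactor of the helicase, lay at the floor on all 8 arrays. Eif5a, named for initiation but known to act mainly in elongation and termination, did not pass either, at 85.7 ± 18.1.

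The eIF4E-binding proteins, which block cap binding when mTOR is inactive, are of interest under food restriction. Eif4ebp1 was lowest at 341 on replicate 2, had a median of 387 and was highest at 577 on replicate 5, with 572 on replicate 6 next to it. Eif4ebp2 was read by 3 probe sets above the filter, and they went apart. The brightest (101072_at) ran from 4832 to 5835, a 1.21-fold range with replicate 5 at 4911. The second (94353_at) read 133 on replicate 5, below the 482 to 651 of the other arrays. The third (96729_at) was at the floor on replicate 5 and at 96.2 on replicate 6, against 194 to 421 on the rest. The transporter gene Eif4enif1 was dim, at 37.7 ± 16.2.

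In all, 14 members had more than 1 probe set, and 5 had more than 1 above the filter. For Eif1a both sets were lowest on replicate 4 and highest on replicate 5 (778 and 384), and for Eif1ax both were highest on replicate 5. For Eif2b5 the brighter set read 369 on replicate 5, within the others' range of 333 to 595, while the dimmer read 69.2 against 177 to 292. For Eif4b the brighter set (100557_g_at) was lowest on replicate 5. The other (161342_r_at) carries the suffix for unmet design rules and read 415 there, within 254 to 586. Whether a gene looked low on replicate 5 thus depended on the probe set for Eif4ebp2, Eif2b5 and Eif4b, and Eef2 and Eef1d were each read by 1 set only.

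**Figure D5:**
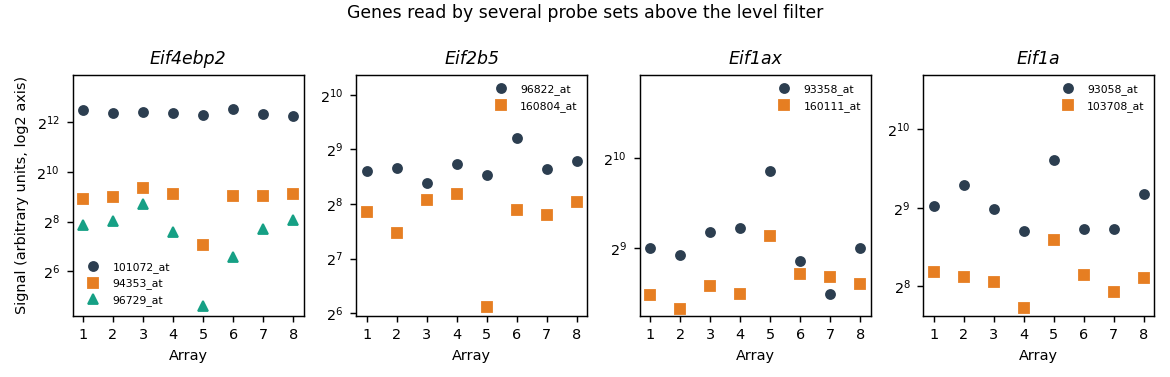
Signal by array (x axis, replicate number; y axis, arbitrary units on a log2 scale) for 4 genes read by several probe sets above the level filter, with a colour and marker for each probe set. On replicate 5 the dimmer sets of Eif4ebp2 and Eif2b5 drop while the brightest set does not, and both sets of Eif1ax and Eif1a are highest there.

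Genes around these factors were described in the same way. Of 9 kept genes of mTOR and MNK signalling (10 of 14 matched), 0 passed limma's adjusted test and 0 passed unadjusted. Over all probe sets 0% passed adjusted, and over all genes 4.84% passed unadjusted, so a count of 0 in a short list is near these shares. On replicate 5, 4 of the 9 were lowest, against 28.3% of all genes. The kinase gene Mknk2, whose product phosphorylates eIF4E, read 1040.0 there, below 2121 to 2727 elsewhere, and Mtor read 426 against 556 to 901. Mknk1 was lowest elsewhere, with a 3.23-fold range, while Larp1, the protein that binds TOP starts, ran only from 1483 to 1948. Of 7 kept targets of the eIF2 stress response, 0 passed adjusted and 1 unadjusted, against 4.84% of all genes unadjusted. Atf5 read 761 on replicate 5, below 1774 to 4002 elsewhere, and Ppp1r15a, the phosphatase subunit that reverses eIF2 phosphorylation, ran 3.56-fold. The central factor Atf4 ran 1.57-fold, with a mean of 1897 ± 307, and Ppp1r15b was highest on replicate 5 at 2044.

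Among genes that bind the poly(A) tail or the helicase, 5 were kept and 0 passed adjusted or unadjusted, near the 4.84% of all genes unadjusted. Pdcd4, an inhibitor of eIF4A, read 3800 on replicate 5, above 1488 to 2040 elsewhere, and the helicase gene Ddx3x read 342 against 665 to 940. Pabpc1, the poly(A)-binding protein gene, ran 1.62-fold at 3616 ± 656, and Pabpc4 ran 1.95-fold. Of the 4 kept mitochondrial factors 0 passed either way, again near the share of all genes. Tufm (a mitochondrial counterpart of eEF1A) read 539 on replicate 5, below 1244 to 1770 elsewhere. Gfm1 (a counterpart of eEF2) was highest there at 1083, and Mtif2 ran 1.51-fold.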

How the data were processed

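The authors' deposited values are intensities on a linear scale, 1 per probe set and array; per the labels they come from a Hewlett-Packard GeneArray scanner. The sources used here do not give the software, scaling or background handling. Of 12488 probe sets, 66 controls were left out. Array medians differed by 26.0% (131.65 to 165.85), so the 12422 others were quantile-normalized, values under the 20th percentile of positive values (24.6) were raised to it, and log2 was taken. The 6211 probe sets above the median mean level were kept. Variances were tested in R 4.3.3 with limma 3.58.1 (squeezeVar with a trend on level, robust, 7 residual and 4.03 prior degrees of freedom). Each variance over its fitted prior gave a 1-sided F test, with Benjamini-Hochberg over all kept probe sets. The test was tried on simulated data. It missed most genes whose spread had been raised severalfold and found a larger share of those raised further. All 49 gene identifiers matched RefSeq (GRCm38.p6), with 0 symbols changed. Members and lists were chosen with earlier results of these data known. Named genes were the 5 kept elongation and the 8 kept initiation genes of highest variance ratio, key factors, members with several probe sets, and the 2 brightest and 2 most variable of each pathway list. The number of arrays limits the precision. Whether each array is a separate extraction is not stated, so the spread may be partly technical. Alternatives were other scaling, floor, filters, probe set rules and classes, and arrays left out.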

Additional observations from a re-analysis of the deposited data

Results flagged for a closer look

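Among the 36 genes, 11 had 1 array far outside the other 7, by the size of its gap relative to the whole range (Dixon's critical value): 10 of 31 initiation factors and 1 of 5 elongation factors, against 20.9% of all genes above the filter. The critical value is meant to flag about 1 in 20 groups of independent normal values. Linear signals were used here and all genes share the same 8 arrays, so that rate is not a yardstick for these counts. Of these 11, 8 stood out on replicate 5 and 3 on replicate 6.

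The low values on replicate 5 were Eef2 at 2432, Eif2b4 at 320.0 and Eif4a2 at 4036. The high values there were Eif1ax at 923, Eif2a at 462, Eif3e at 620, Eif3m at 2243 and Eif4g2 at 515. On replicate 6 the high values were Eif2b2 at 496, Eif2b5 at 595 and Eif3d at 1797. The elongation score of −0.73 and the difference of initiation minus elongation of 0.86, both on replicate 5, stood out in the same way.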

How the results depend on the processing

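No paired analysis was possible because the labels give 1 group. The count of members called variable by limma was 0 under all 16 alternatives. The number ranging over 2-fold, 11 with all arrays, was 19 with no level filter, 5 with the filter at the 75th percentile, 2 without replicates 5 and 6 and 2 to 11 with 1 array left out, the 2 being without replicate 5. Without replicates 5 and 6 the median SD was 0.17 for initiation and 0.094 for elongation factors, the median log2 variance ratios were −0.12 and −1.01, and the mean correlation among initiation factors was −0.0126. With 1 array left out, the median SD ran from 0.19 to 0.53 for elongation and 0.22 to 0.30 for initiation factors. The variance ratio ran from 0.10 to 1.69 for elongation and from 0.0383 to 0.27 for initiation factors, the last low without replicate 6 and 0.0673 without replicate 5. The mean correlation between the classes ran from −0.0624 to 0.0804, and was above 0 without replicate 5. For the values with no test, a move was called when it exceeded a jackknife standard error over the arrays. The order of the median SD, elongation above initiation, was turned without replicate 5 and without replicates 5 and 6. Of 396 values of single genes under other settings with all arrays, 314 were identical, since most settings leave a gene's own values as they are. By more than 1 SD between arrays, 5 moved, all with the mean over probe sets (Eif1a, Eif2b5, Eif4b and both values of Eif4ebp2). An SD is held against itself here, so a fall could not count. On the deposited scale the log2 SD of Eef1a1 was 0.067 in place of 0.036. For the 13 genes below the filter, dim signal limits what can be read.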

Other observations

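Genes of termination and of tRNA charging were not described above. Of 5 kept termination and recycling genes, 0 passed limma's adjusted or unadjusted test, near the 4.84% of all genes unadjusted. On replicate 5, 3 of the 5 were highest, against 34.1% of all genes. Gspt1, the release factor eRF3, read 1849 there and 806 to 1133 on the others. Hbs1l, a ribosome rescue factor, read 2176 against 1477 to 1785, and Etf1, the release factor eRF1, ran only 1.34-fold at 1219 ± 106. Pelo, which acts with Hbs1l, ran 1.68-fold. Of 17 kept cytosolic aminoacyl-tRNA synthetase genes, 0 passed adjusted or unadjusted, against 4.84% of all genes unadjusted. On replicate 5, 10 were highest and 5 lowest, against 34.1% and 28.3% of all genes. Vars read 250 on replicate 5 and 497 to 765 on the others, while Cars read 484 against 163 to 265. Aars and Nars were at 978 ± 99.4 and 922 ± 188.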
